A study of Mus musculus with 10 samples.

Results

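The 10 genes described here form the core of TNF and death receptor signaling: the ligands Tnf, Fasl and Tnfsf10, the receptors Tnfrsf1a, Tnfrsf1b, Fas and Tnfrsf10b, the initiator caspase Casp8 with its regulator Cflar, and the feedback inhibitor Tnfaip3. They were picked by name for these roles from the 45706 genes of the table. The rule uses no measured value, but it was set with earlier results of these data known. RNA was sequenced from whole subcutaneous melanomas taken 4 days after injection of the cells into C57BL/6 mice aged 8 weeks. The cells came from a mouse melanoma line driven by mutant Braf. They were either COX-competent (Ptgs+/+) or had lost Ptgs1 and Ptgs2, which encode the cyclooxygenases COX-1 and COX-2 that make prostaglandins, by CRISPR/Cas9 editing (Ptgs-/-). The 4 Ptgs+/+ and 3 Ptgs-/- libraries came from untreated wild-type hosts. The other 3 Ptgs-/- libraries came from wild-type hosts in which NK cells had been removed (NK-depleted) with antibodies to NK1.1 (200 µg) and to asialo-GM1 (30 µg), injected on days 0 and 2 per the labels (the study's methods describe a different schedule, starting before implantation). Whether the edited cells were a single clone, and whether each library was a single mouse, is not given in the sources used here.

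TNF binds TNFR1 (Tnfrsf1a), which carries a death domain and is made by most cells, and TNFR2 (Tnfrsf1b), which has none and is made mostly by immune and endothelial cells. FAS ligand and TRAIL (Tnfsf10), which NK cells and activated T cells use to kill targets, bind the death receptors FAS and TRAIL-R (Tnfrsf10b) and activate caspase-8. In the same receptor complexes cFLIP (Cflar) holds caspase-8 in check, while A20 (Tnfaip3), itself induced by NF-kB, removes ubiquitin signals and dampens the response.

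The libraries held 8150556 to 12839174 counts, and levels are given as CPM, counts scaled to a common library total of 1000000. These 3′-end libraries yield tags near the end of each transcript, so a level was not divided by gene length. The detection floor was set at 3 counts, worth 0.234 to 0.368 CPM depending on the library, and it allows for counting error alone. Of the 10 genes, 9 passed edgeR's filter on low counts together with 14541 others, and Fasl did not. The sample titles carry 2 codes whose meaning is not given in the sources used here, with Ptgs+/+ replicate 4 and Ptgs-/- replicate 3 under the second. The targeted genes followed the labels: Ptgs1 was lower in the 3 Ptgs-/- libraries than in any Ptgs+/+ library (log2 fold change -0.76 ± 0.13 SE, adjusted p = 0.00202, edgeR's quasi-likelihood test), and so was Ptgs2 (-2.62 ± 0.46, adjusted p = 0.00229), with residual tags of both. Ncr1, the NK cell receptor NKp46, had 0 counts in all 3 NK-depleted libraries. Of the melanoma markers, Tyr, Tyrp1 and Mlana were at or under the floor in all 10 libraries, whereas Mitf lay between 17.4 and 33.1 CPM. Pmel, Dct and Sox10 were at or under the floor in 3, 6 and 1 of the libraries, with highest levels of 0.738, 0.702 and 5.53 CPM. Summed levels of 10 NK cell markers ranged from 22.4 to 49.2 CPM in Ptgs+/+, 95.6 to 202 in Ptgs-/- and 9.20 to 10.1 in NK-depleted tumors, and those of 7 skeletal muscle markers from 16.7 to 150, 95.5 to 342 and 2092 to 4952. In bulk RNA, a change in the number of cells of a type and a change in RNA per cell cannot be told apart.

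**Figure D1:**
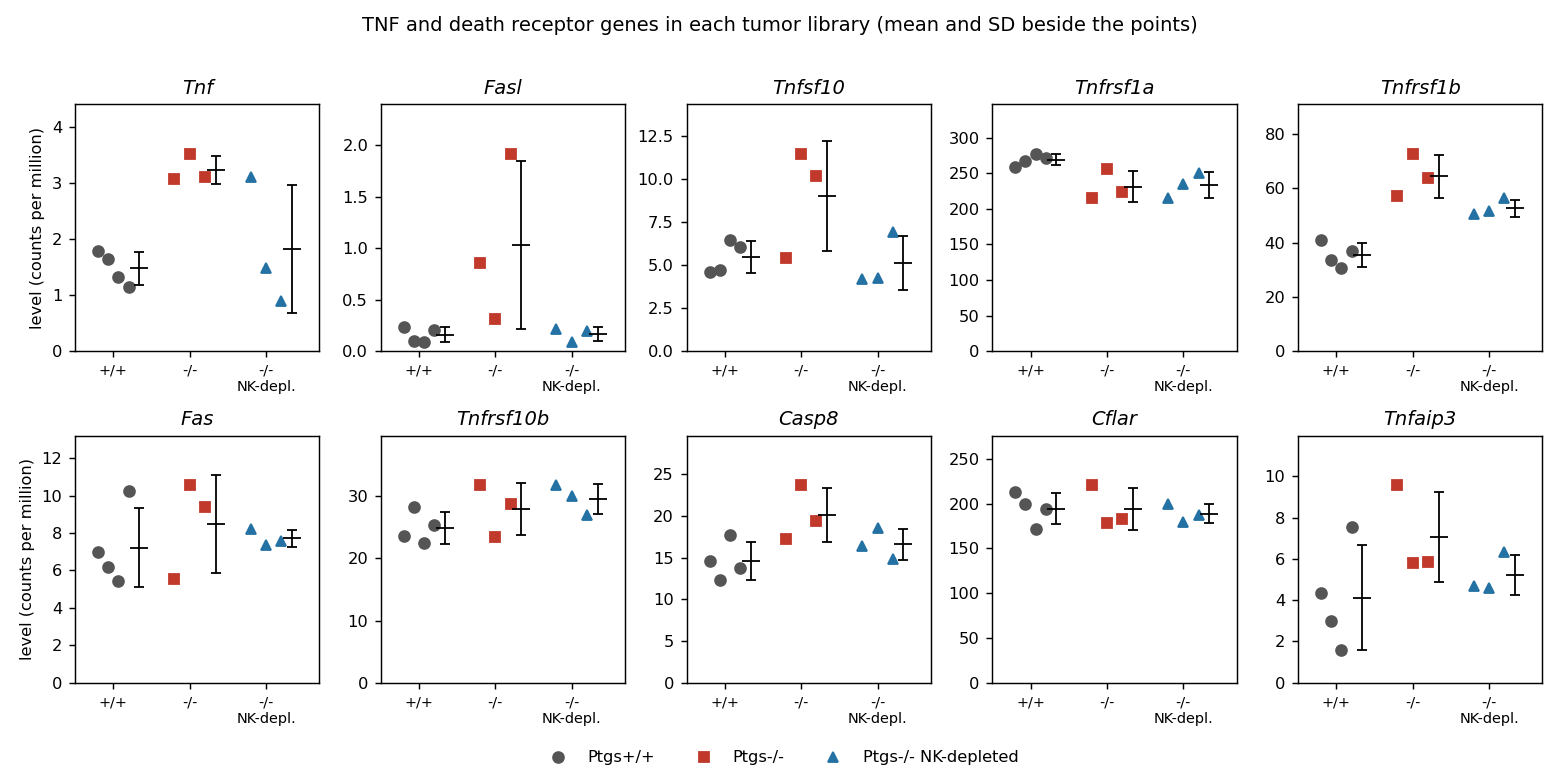
Levels of the 10 genes in each library in CPM on linear axes from 0, by group (grey circles Ptgs+/+, red squares Ptgs-/-, blue triangles NK-depleted Ptgs-/-), with the mean and SD beside the points. For Tnfrsf1b the 3 groups do not overlap, and for Tnf a single NK-depleted library lies among the Ptgs-/- libraries.

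Tnf (ENSMUSG00000024401), the founding ligand of the family, lies on chromosome 17 of GRCm38, from 35199381 to 35202007 on the minus strand. Its mRNA is known to be short-lived through AU-rich repeats in the 3′ UTR, which are shown here because they set Tnf apart from the other members in sequence. The most repeat-dense stretch lies at chr17:35199681-35199710 (GRCm38, minus strand), in the 3′ UTR of the last exon, and is printed from the GENCODE M21 transcript with capitals for TTATTTATT, searched on the transcript strand with overlaps allowed:
Tnf 3′ UTR: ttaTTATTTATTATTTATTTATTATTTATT
These 30 bases hold 4 of the 5 matches in the 764-base UTR. Of 11984 mouse transcripts with a 3′ UTR at least as long, cut to that length, 4.31% hold any match. Among the other members Cflar has 2 matches in 4962 bases, Tnfrsf10b and Tnfaip3 have 1 each in 1845 and 1821 bases, and the remaining 6 have none. Cut to the lengths of Cflar, Tnfrsf10b and Tnfaip3 in turn, 22.8%, 9.42% and 9.28% of transcripts hold any match.

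Tnf was scarce in every group, and its higher level in Ptgs-/- tumors fell just short of the threshold. Its level was 1.79, 1.65, 1.32 and 1.15 CPM in the 4 Ptgs+/+ libraries, which rest on 11 to 23 counts each. It was 3.07, 3.52 and 3.10 CPM in the 3 Ptgs-/- libraries (25 to 34 counts) and 3.10, 1.48 and 0.894 CPM in the NK-depleted ones (9 to 29 counts). The Ptgs-/- libraries all lay above the Ptgs+/+ ones, while NK-depleted replicate 1 was as high as the Ptgs-/- group and the other NK-depleted libraries fell within or below the Ptgs+/+ range. The fold between Ptgs-/- and Ptgs+/+ was 2.08 (95% interval 1.20 to 3.60, n = 3 and 4), with an adjusted p of 0.0562 in edgeR's quasi-likelihood test, adjusted by the Benjamini-Hochberg method over all genes. That p moved across the threshold with small changes of processing. It was 0.0485 with DESeq2 and 0.161 within the first title code, and between 0.0242 and 0.152 when each library was left out in turn. Against the NK-depleted tumors the log2 fold change of Tnf was 0.80 ± 0.39 SE (adjusted p = 0.483, same test), and it was 1.40 (adjusted p = 0.159) without NK-depleted replicate 1. NK-depleted and Ptgs+/+ tumors differed by 0.25 ± 0.38 (adjusted p = 0.733), within an interval from -0.59 to 1.09.

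Fasl (ENSMUSG00000000817, chromosome 1, 161780689 to 161788495, minus strand), which encodes the ligand of FAS, was close to the detection limit. Its counts were 3, 1, 1 and 2 in Ptgs+/+ tumors, 7, 3 and 21 in Ptgs-/- tumors and 2, 1 and 2 after NK cell depletion. As levels these are 0.0878 to 0.234 CPM, 0.310 to 1.91 CPM and 0.0923 to 0.214 CPM, so that the Ptgs-/- levels did not overlap those of either other group but had a wide spread. Ptgs-/- replicate 2, with 3 counts, was itself at the floor and had as many counts as Ptgs+/+ replicate 1, so the lack of overlap there rests on the scaling to library size. The pooled counts gave a Ptgs-/- to Ptgs+/+ ratio of 6.69 (95% counting interval 2.89 to 18.0) and a Ptgs-/- to NK-depleted ratio of 6.52 (2.51 to 21.5). Such intervals allow for counting error alone and leave out the spread between libraries, which was wide in Ptgs-/- tumors. Most of the Ptgs-/- counts came from replicate 3, the only Ptgs-/- library under the second title code. Without it the ratios were 3.49 (1.20 to 10.8) and 3.40 (1.06 to 12.7), an alternative chosen after seeing the data. Over libraries, a two-sided exact permutation test on log2(CPM + 1) gave p = 0.0571 and p = 0.1, the smallest values that 4 against 3 and 3 against 3 libraries allow. NK-depleted and Ptgs+/+ tumors had a Fasl ratio of 1.03 (0.257 to 3.76), with p = 0.971 in the exact test. Beside these counts, the summed NK cell markers stood at 95.6, 115 and 202 CPM in Ptgs-/- replicates 1, 2 and 3, and those of 9 T cell markers at 3.95 to 6.17 CPM in Ptgs+/+, 15.0 to 40.5 in Ptgs-/- and 11.1 to 17.7 in NK-depleted tumors. Their part in the Fasl counts was not tested.

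Tnfsf10 (ENSMUSG00000039304, chromosome 3, 27317028 to 27342427, plus strand) encodes TRAIL, which binds a death receptor and is a known interferon-inducible gene. Its level was 4.60, 4.74, 6.50 and 6.07 CPM in Ptgs+/+, 5.40, 11.5 and 10.2 CPM in Ptgs-/-, and 4.17, 4.24 and 6.95 CPM in NK-depleted tumors. Ptgs-/- replicates 2 and 3 were the 2 highest of the 10 libraries, whereas Ptgs-/- replicate 1 lay inside the range of both other groups. The log2 fold change was 0.67 ± 0.27 against Ptgs+/+ (SE, adjusted p = 0.0986, edgeR's quasi-likelihood test) and 0.80 ± 0.30 against NK-depleted tumors (adjusted p = 0.320). Without Ptgs-/- replicate 1 the first of these was 0.92 with an adjusted p of 0.0184. NK-depleted and Ptgs+/+ tumors differed by -0.13 ± 0.28 (adjusted p = 0.824).

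Over the 10 libraries, the genes with the profile of log2(CPM + 1) most like that of each ligand were Pacsin1 for Tnf (Pearson's r = 0.912), Gpr174 for Fasl (0.941) and Clec2d for Tnfsf10 (0.969), out of 14541 genes ranked. The next were Gm37145 (0.898) and Ccdc149 (0.897) for Tnf, Tmem123 (0.928) and Ager (0.923) for Fasl, and Tmem51os1 (0.966) and Pgr (0.965) for Tnfsf10. These are descriptions of 10 libraries that fall into 3 groups, and those of Tnf and Fasl rest on few counts.

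Among the receptors, Tnfrsf1b (ENSMUSG00000028599) was the member that rose. It lies on chromosome 4 from 145213463 to 145246870 on the minus strand. The 250 bases before its transcription start are printed because this is the member whose change passed the test, and those of Tnfaip3 (chromosome 10) because that gene is a textbook NF-kB target. Both come from the RefSeq table for GRCm38.p6, 5′ to 3′ on the gene's strand, with capitals for matches on either strand, overlaps allowed, to the NF-kB consensus or to TTCNNNGAA (the gamma-activated sequence, GAS):
Tnfrsf1b, chr4:145246871-145247120, minus strand: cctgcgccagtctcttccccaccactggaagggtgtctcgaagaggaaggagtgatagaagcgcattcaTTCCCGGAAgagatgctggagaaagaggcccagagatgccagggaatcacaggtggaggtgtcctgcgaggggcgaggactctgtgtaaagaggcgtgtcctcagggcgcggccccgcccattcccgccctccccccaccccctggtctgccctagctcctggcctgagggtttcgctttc
Tnfaip3, chr10:19015411-19015660, minus strand: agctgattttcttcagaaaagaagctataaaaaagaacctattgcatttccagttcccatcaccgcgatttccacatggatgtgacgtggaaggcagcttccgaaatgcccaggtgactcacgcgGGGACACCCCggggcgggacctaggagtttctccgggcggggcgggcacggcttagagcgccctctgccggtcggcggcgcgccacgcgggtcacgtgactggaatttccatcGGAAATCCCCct
The Tnfrsf1b stretch holds a GAS match, TTCCCGGAA, that begins 181 bases before the start, and its last 9 bases match GAAANNGAA, the core of the interferon-stimulated response element, on the other strand. The Tnfaip3 stretch holds the NF-kB consensus in 2 places, as GGGACACCCC and, just before the start, as GGAAATCCCC. Windows of 250 bases before to 50 after the start were searched for 9 of the 10 members, and of 32851 such windows 8.46% held the NF-kB consensus, 8.3% the GAS letters and 8.56% the response element core. Tnfrsf1a and Fas each had a GAS match and Cflar a response element match, while Tnf, Fasl, Tnfsf10 and Casp8 had none of the 3. Tnfaip3 has a second listed start, and its window, chr10:19011914-19012213, also had none of the 3. A match is a run of letters, not a measured site.

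The level of Tnfrsf1b was 41.0, 33.7, 30.5 and 36.8 CPM in Ptgs+/+ tumors, 57.1, 72.7 and 63.6 CPM in Ptgs-/- tumors and 50.4, 51.5 and 56.3 CPM in NK-depleted tumors. The groups were ordered without overlap, with Ptgs-/- highest and Ptgs+/+ lowest. The fold between Ptgs-/- and Ptgs+/+ tumors was 1.74 (95% interval 1.45 to 2.09, adjusted p = 0.000966, edgeR's quasi-likelihood test). NK-depleted tumors also exceeded Ptgs+/+ tumors, by a fold of 1.45 (1.21 to 1.74, adjusted p = 0.0141). The step between Ptgs-/- and NK-depleted tumors, a fold of 1.20 (0.987 to 1.46), did not pass the test (adjusted p = 0.492). Within the first title code alone the log2 fold changes against Ptgs+/+ were 0.87 and 0.56, with adjusted p-values of 0.00933 and 0.0410. The second call was lost without NK-depleted replicate 3, where the log2 fold change was 0.50 and the adjusted p 0.0676.

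Markers of macrophages and monocytes also differed from Ptgs+/+ tumors. Summed over 10 markers, their level was 1823 to 2115 CPM in Ptgs+/+, 3076 to 4989 in Ptgs-/- and 2857 to 3161 in NK-depleted tumors, and of the 10, 8 rose in Ptgs-/- and 4 in NK-depleted tumors against Ptgs+/+. Per 1000 counts of these markers, Tnfrsf1b had 17.6 ± 2.38 counts in Ptgs+/+ (SD, n = 4), 16.5 ± 1.99 in Ptgs-/- (n = 3) and 17.2 ± 0.841 in NK-depleted tumors (n = 3). The group means of this ratio lay within the spread between replicates (exact permutation p = 0.629, 0.6 and 0.857 for the 3 pairs of groups, unadjusted). Tnf on the same scale was 0.738 ± 0.181, 0.831 ± 0.150 and 0.612 ± 0.421 counts (exact p = 0.514, 0.4 and 0.457). The smallest p possible is 0.0571 for 4 against 3 libraries and 0.1 for 3 against 3, so these tests cannot show that the groups are alike. These ratios were chosen after the levels had been seen, and the part of the marked cells in the level of either gene was not tested.

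**Figure D2:**
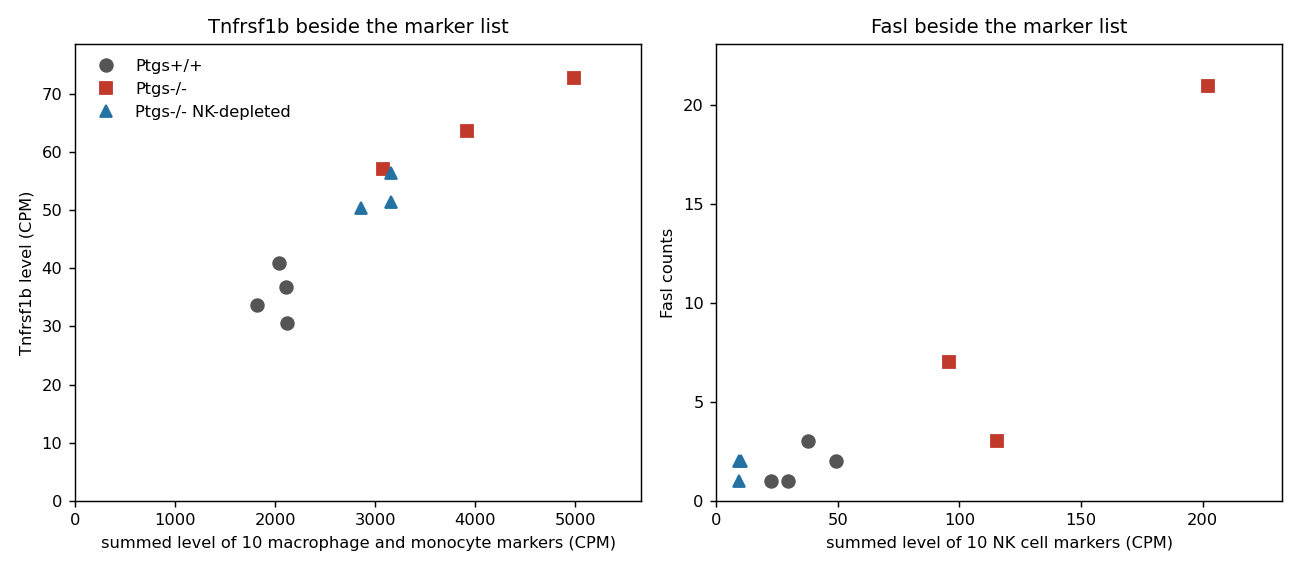
Left, level of Tnfrsf1b against the summed level of 10 macrophage and monocyte markers, both in CPM, and right, Fasl counts against the summed level of 10 NK cell markers, with 1 point a library, symbols by group and linear axes from 0. The Ptgs-/- library with the most Fasl counts, 21, also has the highest NK cell marker sum, 202 CPM.

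Tnfrsf1a (ENSMUSG00000030341, chromosome 6, 125349362 to 125362484, plus strand) had the most counts of the 10 genes, with lower rather than higher values in Ptgs-/- tumors. It stood at 259, 267, 277 and 271 CPM in Ptgs+/+, 215, 256 and 223 CPM in Ptgs-/-, and 215, 235 and 251 CPM in NK-depleted tumors. Every Ptgs-/- library of either kind lay below every Ptgs+/+ library, but Ptgs-/- replicate 2 did so by a small margin. The log2 fold change was -0.28 ± 0.09 for Ptgs-/- against Ptgs+/+ (adjusted p = 0.0548, edgeR's quasi-likelihood test), and it passed with DESeq2 (-0.26, adjusted p = 0.0402). NK-depleted tumors differed from Ptgs+/+ by -0.23 ± 0.09 (adjusted p = 0.131) and from Ptgs-/- tumors by less than the spread between libraries. Within the first title code, Ptgs-/- and Ptgs+/+ tumors differed by -0.21 (adjusted p = 0.268).

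The balance of counts between the TNF receptors separated the groups. The ratio of Tnfrsf1b to Tnfrsf1a counts was 0.158, 0.126, 0.110 and 0.136 in Ptgs+/+, 0.266, 0.284 and 0.285 in Ptgs-/-, and 0.234, 0.219 and 0.224 in NK-depleted tumors. Its mean of 0.133 ± 0.0201 (SD, n = 4) in Ptgs+/+ compared with 0.278 ± 0.0108 (n = 3) in Ptgs-/- and 0.226 ± 0.00785 (n = 3) in NK-depleted tumors. Exact permutation tests gave p = 0.0571, 0.1 and 0.0571 for Ptgs-/- against Ptgs+/+, Ptgs-/- against NK-depleted and NK-depleted against Ptgs+/+, each the smallest p these group sizes allow. The ratio was chosen after the levels had been seen. Both genes already separated Ptgs+/+ from the other groups without overlap, in opposite directions. The ratio therefore had to separate them as well, so both p-values of 0.0571 were fixed beforehand and add no support. The ratio compares counts, not molecules.

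The death receptors showed no change that passed the test. Fas (ENSMUSG00000024778, chromosome 19, 34290666 to 34327772, plus strand), the receptor of FAS ligand, had 7.01, 6.19, 5.44 and 10.3 CPM in Ptgs+/+, 5.52, 10.6 and 9.39 CPM in Ptgs-/-, and 8.24, 7.38 and 7.55 CPM in NK-depleted tumors. Its groups overlapped, and the Ptgs-/- libraries spanned almost the whole range of the Ptgs+/+ ones. The log2 fold change against Ptgs+/+ was 0.19, with an interval from -0.36 to 0.73 (adjusted p = 0.631, edgeR's quasi-likelihood test). Tnfrsf10b (ENSMUSG00000022074, chromosome 14, 69767472 to 69784411, plus strand), the receptor of TRAIL, had 23.6, 28.2, 22.5 and 25.3 CPM in Ptgs+/+, 31.8, 23.5 and 28.7 CPM in Ptgs-/-, and 31.8, 30.1 and 27.0 CPM in NK-depleted tumors. These groups overlapped too. Its log2 fold change against Ptgs+/+ was 0.11 (-0.19 to 0.40, adjusted p = 0.606), an interval that bounds any difference to less than that of Tnfrsf1b.

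Casp8 (ENSMUSG00000026029, chromosome 1, 58795374 to 58847503, plus strand), the initiator caspase, and its neighbour Cflar (ENSMUSG00000026031, chromosome 1, 58711508 to 58758884, plus strand), an inactive caspase-8 relative, did not pass the test in any of the 3 comparisons. Casp8 had 14.6, 12.4, 17.7 and 13.8 CPM in Ptgs+/+, 17.3, 23.7 and 19.4 CPM in Ptgs-/-, and 16.4, 18.5 and 14.9 CPM in NK-depleted tumors. Ptgs-/- replicate 1 fell just under the highest Ptgs+/+ library, so the groups overlapped by a single pair. Its log2 fold change of 0.40 ± 0.16 had an adjusted p of 0.0973 (edgeR's quasi-likelihood test), and without Ptgs+/+ replicate 3 it was 0.51 with an adjusted p of 0.0310. Cflar had 213, 199, 172 and 194 CPM in Ptgs+/+, 220, 179 and 183 CPM in Ptgs-/-, and 200, 179 and 187 CPM in NK-depleted tumors. With a log2 fold change of -0.06 (-0.30 to 0.17, adjusted p = 0.717) it did not pass, and its groups overlapped. The ratio of Cflar to Casp8 counts, chosen after the levels had been seen, was 13.6 ± 2.75 (SD, n = 4), 9.90 ± 2.64 (n = 3) and 11.5 ± 1.59 (n = 3), and its groups did not differ beyond that spread (exact permutation p = 0.114, 0.5 and 0.286). The smallest p these group sizes allow is 0.0571 or 0.1, so the test cannot show that the groups are alike. The genes lie side by side on the same strand, and no annotated exon of either overlaps an exon of another gene. Cflar has 13 annotated transcripts, and the gene counts do not tell its long and short protein forms apart.

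Tnfaip3 (ENSMUSG00000019850, chromosome 10, 19000910 to 19015657, minus strand), which encodes A20, varied most among the Ptgs+/+ libraries. Its level was 4.36, 2.99, 1.58 and 7.53 CPM in Ptgs+/+, 9.57, 5.79 and 5.84 CPM in Ptgs-/-, and 4.71, 4.61 and 6.36 CPM in NK-depleted tumors. Ptgs+/+ replicate 4, of the second title code, lay above 2 of the 3 Ptgs-/- libraries. The log2 fold change of 0.73 ± 0.40 did not pass (adjusted p = 0.216, edgeR's quasi-likelihood test). Without that library it was 1.16 with an adjusted p of 0.0409, and within the first code 1.33 with an adjusted p of 0.0503.

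**Figure D3:**
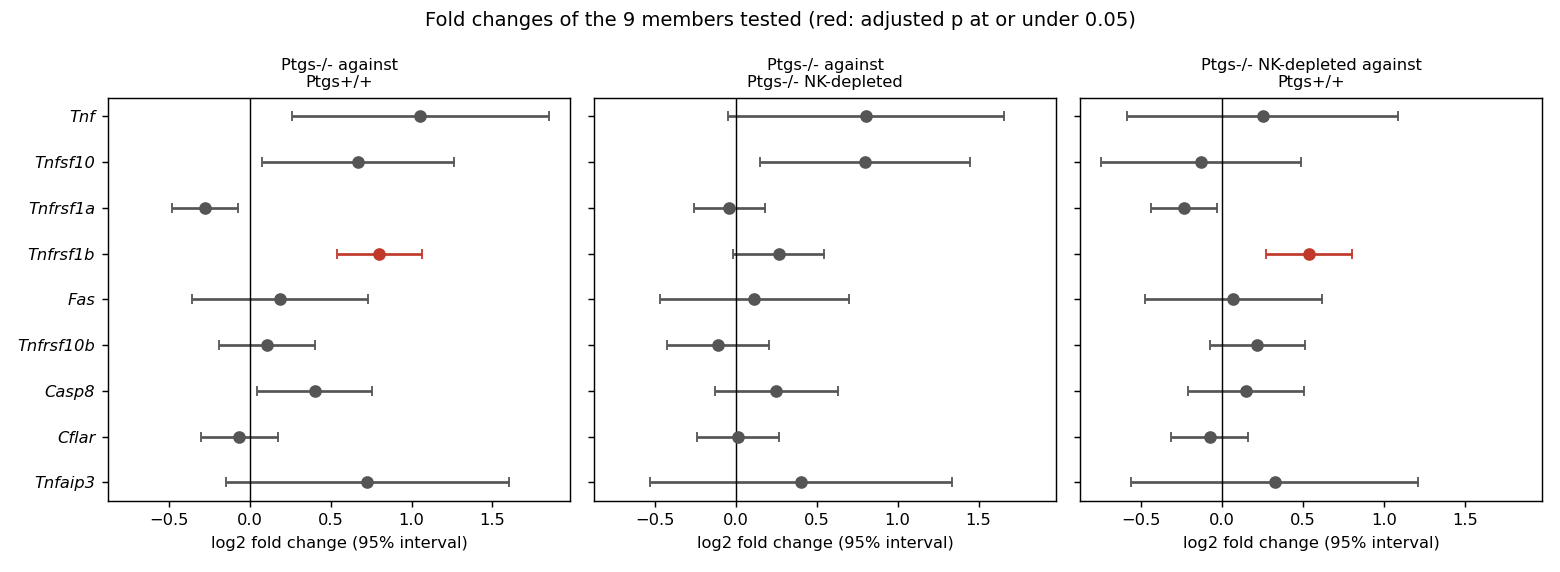
Log2 fold changes with 95% intervals of the 9 genes tested, in the 3 comparisons, on a shared linear axis, with red for an adjusted p at or under 0.05. Tnfrsf1b is the red point in the Ptgs-/- and in the NK-depleted comparison with Ptgs+/+, and no point is red between Ptgs-/- and NK-depleted tumors.

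Counted over the members, 1 of the 9 tested (Tnfrsf1b) passed the test between Ptgs-/- and Ptgs+/+ tumors, where 23.1% of all 14550 genes did, and 5 had an unadjusted p under 0.05, against 35.9%. None also reached the absolute log2 fold change of 1.5, against 4.15% of all genes. The median log2 fold change of the members was 0.40, beside -0.01 over all genes tested. In the comparison of Ptgs-/- with NK-depleted tumors 0 of 9 passed with edgeR, where 1.44% of all genes did, and 1 (Tnfsf10) had an unadjusted p under 0.05, against 11.2%. The median there was 0.25. With DESeq2 0 members passed in that comparison, beside 383 genes over all. In NK-depleted against Ptgs+/+ tumors 1 of 9 (Tnfrsf1b) passed, beside 12.5% of all genes, with a median of 0.15. It rose, as did 6.63% of all genes, while 5.87% fell. None of the 9 also reached the fold threshold in these comparisons, beside 1.15% and 2.71% of all genes. Libraries did not overlap between groups for 3 of the 9 in the first comparison, 1 in the second and 2 in the third, where 30.6%, 17.6% and 27.1% of all genes did not. The comparisons share libraries.

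Around these genes, 121 others of the pathway were listed by role, of which 108 were tested, and 30 rose and 13 fell in Ptgs-/- against Ptgs+/+ tumors, so that 39.8% passed, beside 23.1% of all genes. These lists, too, were chosen with earlier results known. Immune cell markers rose in the same comparison, with 7 of 8 T cell markers tested (median log2 fold change 2.77), 8 of 9 NK cell markers (2.10) and 8 of 10 macrophage and monocyte markers (1.03), and their part in the pathway genes was not tested. In Ptgs+/+ tumors some of these markers were near the floor, such as Cd8a (0.206 to 0.314 CPM) and Klre1 (0.309 to 0.732 CPM). Such markers passed the filter through their level in other groups, so the filter bears on these counts and medians. Of 14 other TNF superfamily ligands listed, 8 failed the filter on low counts. Of the 6 tested, 4 rose and 0 fell (median log2 fold change 0.63). They included Ltb, the membrane partner of lymphotoxin alpha, with 1.06 ± 0.445 CPM in Ptgs+/+, 4.14 ± 2.57 in Ptgs-/- and 2.11 ± 0.918 in NK-depleted tumors (adjusted p = 0.0126, edgeR's quasi-likelihood test). Tnfsf12, which encodes TWEAK, rose by a log2 fold change of 0.54 (adjusted p = 0.00619), though its exons are shared with a read-through gene and its counts are uncertain. Of 18 other receptors tested, from 22 listed, 10 rose and 2 fell (median 0.88). Cd40, the receptor through which T cells license antigen-presenting cells, went from 12.7 ± 1.07 CPM (SD, n = 4) to 39.0 ± 10.2 (n = 3, adjusted p = 0.000292), and Tnfrsf19 from 0.491 ± 0.128 to 4.76 ± 0.797 CPM (adjusted p = 0.000478). The Ptgs+/+ level of Tnfrsf19 was near the floor, so that gene passed the filter through the other groups. The receptors that fell were Tnfrsf12a, the TWEAK receptor, from 77.2 ± 19.5 to 45.9 ± 12.4 CPM (adjusted p = 0.0190), and Ltbr, the lymphotoxin beta receptor, from 300.4 ± 26.1 to 255.8 ± 10.1 CPM (adjusted p = 0.0438).

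Nearer the receptors, 7 of 28 adaptors, kinases and ubiquitin enzymes rose and 1 fell (median 0.31). The adaptors Traf1, which binds TNFR2, and Traf5 rose from 13.6 ± 2.15 to 30.6 ± 6.58 CPM (adjusted p = 0.00171, edgeR's quasi-likelihood test) and from 16.1 ± 3.51 to 34.2 ± 3.28 CPM (adjusted p = 0.00189). Map3k7, the kinase TAK1, fell from 83.4 ± 4.17 to 65.4 ± 4.56 CPM (adjusted p = 0.00780). The death domain adaptors Fadd and Tradd and the death domain kinase Ripk1 did not pass. Their log2 fold changes were -0.33, 0.14 and 0.08 (adjusted p = 0.190, 0.358 and 0.818, same test). Of 21 downstream caspases and BCL-2 family genes, 3 rose and 2 fell (median 0.09). The survival gene Bcl2 and the BH3-only gene Pmaip1 rose by 0.69 and 0.83 (adjusted p = 0.00564 and 0.0123), whereas Bcl2l1, encoding BCL-XL, and the executioner Casp6 fell by 0.75 and 0.64 on the log2 scale (adjusted p = 0.00269 and 0.0124).

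Of the 3 necroptosis genes Zbp1, a nucleic acid sensor, rose from 12.9 ± 3.58 to 57.4 ± 19.0 CPM (adjusted p = 0.000380, edgeR's quasi-likelihood test), while Ripk3 and Mlkl had 0.16 and 0.27 (adjusted p = 0.604 and 0.195). Of 23 NF-kB subunits and targets, 3 rose and 7 fell (median -0.01). The subunit Rel and the maturation marker Cd83 rose by 0.70 and 1.97 (adjusted p = 0.00323 and 0.000218), and Il1b and the adhesion molecule Vcam1 fell by 2.15 and 1.18 on the log2 scale (adjusted p = 6.13e-06 and 0.000628). Il1b, Il6, Cxcl1 and Cxcl2, which are 4 of the 7 that fell, belong to a list of cancer-promoting mediators that the study used on these tumors, so their fall is not independent evidence. Of the neutrophil markers tested, 6 of 9 fell beside them, from summed levels of 480 to 722 CPM in Ptgs+/+ to 125 to 170 in Ptgs-/- and 187 to 239 in NK-depleted tumors, and their part was not tested. Of 10 genes for shedding of TNF and decay of its mRNA, 2 rose and 1 fell (median 0.12). The sheddase inhibitor Timp3 and the sheddase partner Rhbdf2 rose by 1.30 and 0.68 (adjusted p = 0.00514 and 0.0190), and Rhbdf1 fell by 0.57 on the log2 scale (adjusted p = 0.00311). Zfp36, whose protein tristetraprolin binds the AU-rich repeats printed above, had 0.08 ± 0.28 (adjusted p = 0.879).

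When Ptgs-/- tumors were set against NK-depleted ones, 1 of the 108 pathway genes passed, where 0.515% of all genes were higher and 0.921% lower. Traf1 was higher in Ptgs-/- tumors, at 30.6 ± 6.58 against 15.0 ± 2.76 CPM, a log2 fold change of 1.01 (adjusted p = 0.0306, edgeR's quasi-likelihood test). No pathway gene passed when all genes needed 10 counts in every library, when only these 2 groups were fitted, within the first title code or with the code as a term. None passed without Ptgs+/+ replicate 2 or 4, Ptgs-/- replicate 2 or 3, or any NK-depleted library, each left out alone, and 4 passed without Ptgs-/- replicate 1. Between NK-depleted and Ptgs+/+ tumors 11 rose and 8 fell, so that 17.6% passed, beside 12.5% of all genes. The 19 became 11, 8 and 9 without NK-depleted replicates 1, 2 and 3. Tnfrsf19 (log2 fold change 3.87), Cd40 (1.03), Traf5 (1.06), Otulin (0.54), Pmaip1 (0.67), Zbp1 (0.95) and Cd83 (1.44) were among those that rose. Tnfrsf9 (-1.01), Bcl2l1 (-0.58), Il1b (-2.05), Vcam1 (-1.08) and Rhbdf1 (-0.40) were among those that fell, with adjusted p-values over the 12 named genes from 8.91e-06 to 0.0479. All 7 muscle markers rose in the same comparison, and the part of muscle tissue in these differences was not tested.

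**Figure D4:**
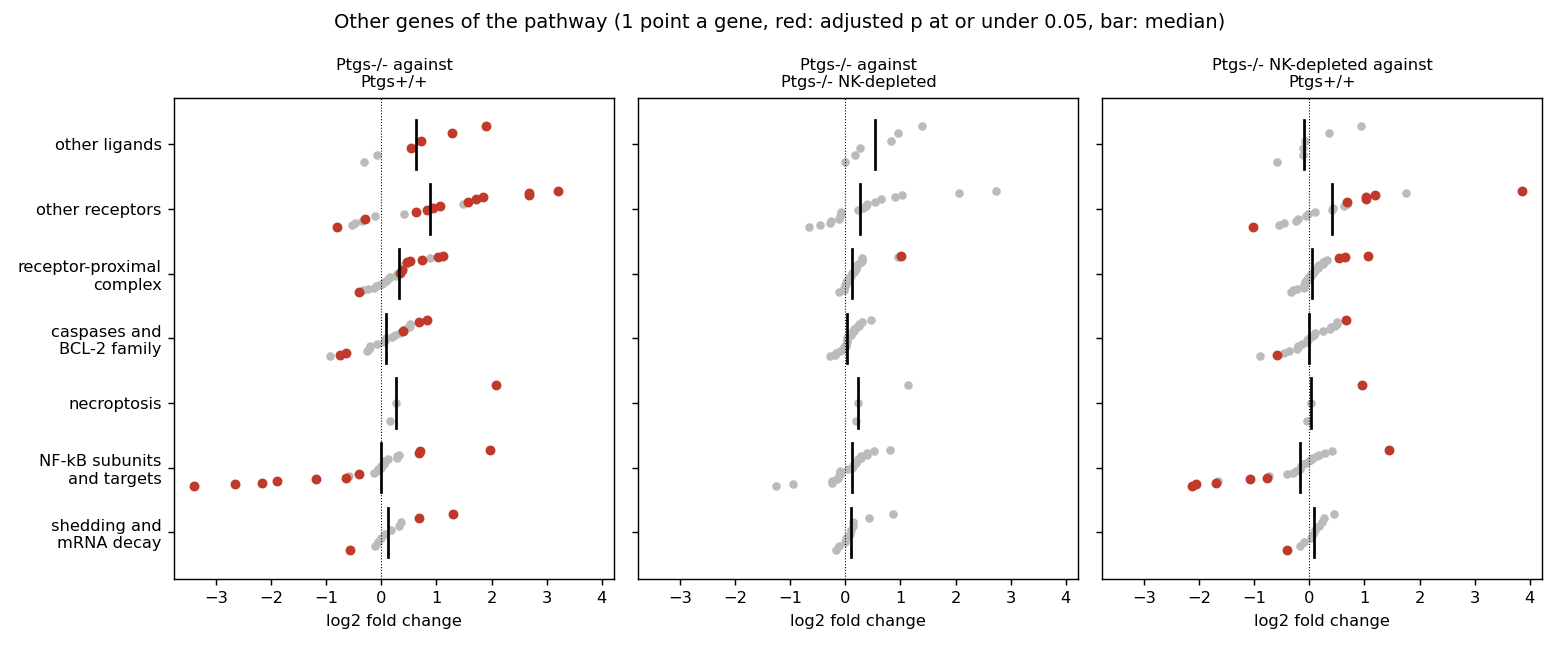
Log2 fold changes of the 108 pathway genes tested, by list and comparison, with 1 point a gene, red for an adjusted p at or under 0.05, and a bar at each list's median (a gene on 2 lists is drawn in both). Other receptors have the highest median against Ptgs+/+, 0.88, and Traf1 is the single red point between Ptgs-/- and NK-depleted tumors.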

How the data were processed

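Bulk tumor RNA was made into QuantSeq 3′ libraries. The authors trimmed reads with BBDUK, fqtrim and cutadapt, aligned them to GRCm38 with STAR, counted them on Ensembl genes with featureCounts, and deposited raw counts per gene without pooling or normalization. The strand, multimapping and molecular identifier settings of the counting are not given in the sources used here. Groups came from the submitters' titles. The labels do not say that libraries of a group are separate cultures or animals, so p-values measure the spread between libraries.

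The count model was fitted with edgeR 4.0.16 under R 4.3.3 (filterByExpr, TMM factors, quasi-likelihood test, 3 groups in 1 model of 10 libraries, Benjamini-Hochberg over 14550 genes) and called at an adjusted p at or under 0.05, also with the study's absolute log2 fold change of 1.5. DESeq2 1.42.0 was an alternative. Fasl, which failed the filter, was compared by two-sided exact permutation on log2(CPM + 1) and by pooled counts, with exact intervals for counting error alone. Replicates differed by a chi-square of 7.41 to 30.1 per degree of freedom, more than counting error alone gives. No library was therefore treated as a repeat run of another. This spread cannot show whether the libraries came from separate tumors or animals. The fit was tested on simulated counts, with changed genes at an absolute log2 fold change of 1.5 and a single spread for all genes. No tested member reached that fold, so the simulation does not bear on calls of the members. Of 45706 identifiers, GENCODE M21 named 45143. Named genes are the members, Ptgs1, Ptgs2, Ncr1 and Klrb1c, up to 2 higher and 2 lower genes per list and comparison by adjusted p, and the 3 genes most like each ligand. Others were named after their values were seen (Fadd, Tradd, Ripk1, Ripk3, Mlkl, Zfp36, Il6, Cxcl1, Cxcl2 and markers). Members and lists were chosen with earlier results of these data known.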

Additional observations from a re-analysis of the deposited data

How the results depend on the processing

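Tnfrsf1b kept its call against Ptgs+/+ in every alternative fit for Ptgs-/- tumors except with the fold threshold added, and for NK-depleted tumors in every one except that threshold and the fit without NK-depleted replicate 3. Members called between Ptgs-/- and Ptgs+/+ numbered 1, but 3 with DESeq2 (Tnf, Tnfrsf1a, Tnfrsf1b) and without a filter (Tnf, Tnfrsf1b, Fasl), 2 with the likelihood ratio test, library size alone or only both groups, 0 with the fold threshold, and 1 to 2 with each library left out. Over all genes, 3624 were called there with DESeq2, 3272 of 27098 without a filter and 3659 with the likelihood ratio test. With library size alone 3325 were called and with only both groups 2608, beside 3360 in the main fit. Between NK-depleted and Ptgs+/+ tumors the number of members called was 1, 0 with the fold threshold and 0 to 1 with libraries left out. Between Ptgs-/- and NK-depleted tumors it was 0 throughout. Without a filter Fasl had a log2 fold change of 2.57 (adjusted p = 0.00908, edgeR's quasi-likelihood test, 27098 genes) against Ptgs+/+ and 2.54 (0.103) against NK-depleted tumors. These values rest on 31 counts in Ptgs-/-, 7 in Ptgs+/+ and 5 in NK-depleted tumors. Of the 31, 21 came from Ptgs-/- replicate 3, under the second title code.

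Pathway genes called between Ptgs-/- and Ptgs+/+ numbered 43, 27 within the first title code, 13 with the fold threshold and 29 to 50 with libraries left out. Between Ptgs-/- and NK-depleted tumors the number was 1, but 6 with DESeq2 or no filter, 4 with the likelihood ratio test, 0 with 10 counts in every library, only both groups, the first code, the code as a term or the fold threshold, and 0 to 4 with libraries left out. Between NK-depleted and Ptgs+/+ tumors it was 19, then 12, 4 and 8 to 25 for the first code, fold threshold and libraries left out. Over all genes the respective calls were 3360 (2222 in the first code, 604 with the fold threshold, 2062 to 3881 with libraries left out), 209 (383 with DESeq2, 403 with the likelihood ratio test, 408 without a filter, 42 with 10 counts in every library, 93 in the first code, 106 to 411) and 1818 (395 with the fold threshold, 909 to 2116). The cause of these shifts was not tested.

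Small differences changed sign. Between Ptgs-/- and Ptgs+/+ tumors Cflar was 0.012 within the first code and -0.17 to 0.021 with libraries left out, and Tnfrsf10b -0.00036 to 0.23. Between Ptgs-/- and NK-depleted tumors Tnfrsf1a was 0.020 within the first code and -0.11 to 0.024 with libraries left out, Fas -0.038 with the code as a term and -0.062 to 0.33, Cflar -0.10 to 0.087, Tnfrsf10b -0.22 to 0.012 and the log2 ratio of Tnfrsf1b to macrophage markers -0.16 to 0.010. Between NK-depleted and Ptgs+/+ tumors Tnf was -0.35 to 0.59, Fas -0.042 to 0.27, the same Tnfrsf1b ratio -0.11 to 0.046 and the Fasl difference in log2(CPM + 1) -0.017 to 0.061.

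With the label number as a replicate block, 2 members were called between Ptgs-/- and Ptgs+/+ tumors, Tnf (adjusted p = 0.0455) joining Tnfrsf1b, and the other counts stayed within 1.5 times. Over all genes 3237 were called in that fit. Deviations from the group mean had r from -0.30 to 0.39 (median 0.06, over 11 pairs) between libraries with the same number. Between libraries with different numbers r ran from -0.47 to 0.19 (median -0.0051, over 22 pairs). Some pairs with the same number join different title codes, and the groups are small, so pairing by number was neither shown nor excluded. Depth limits Fasl, at or under the floor in all Ptgs+/+ and NK-depleted libraries and in Ptgs-/- replicate 2, and Tnf, with 9 to 34 counts a library.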
